A study of Mus musculus with 8 samples.

Results

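The genes of polyamine synthesis and oxidation were followed in ribosome-bound RNA of mouse Otp-lineage brain cells, with the gene of the transcriptional repressor Capicua (Cic) floxed or intact. They were taken by gene symbol from count tables of 24421 gene rows, and all 10 symbols were found. They comprise the oxidases Smox and Paox, the acetyltransferase Sat1, the synthesis enzymes Odc1, Amd1, Srm and Sms, the antizymes Oaz1 and Oaz2, and the antizyme inhibitor Azin1. The set was put together with the KO against Control result for Smox already known, so the members' values in that comparison are a description, and the adjusted p printed for Smox is no independent evidence. The 4 KO libraries came from C57BL/6 mice with the genotype Otp-Cre; Cicflox/flox; ROSAfsTRAP, and the 4 Control libraries from C57BL/6 mice with Otp-Cre and ROSAfsTRAP but no floxed Cic. Both groups thus share the Cre driver, active where Otp is or was expressed, and the TRAP allele, through which ribosomes of those cells are tagged and their bound RNA is purified. The tissue was dissected hypothalamus and medial amygdala. The labels used here state no age, sex or number of animals per library, and p-values therefore reflect only how far these samples spread, which may be technical.

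Putrescine, spermidine and spermine are small cations that bind nucleic acids and modulate ion channels, among them glutamate receptors and inward rectifier potassium channels of neurons. Ornithine decarboxylase (Odc1) makes putrescine, and spermidine synthase (Srm) and spermine synthase (Sms) extend it with aminopropyl groups that S-adenosylmethionine decarboxylase (Amd1) supplies. Breakdown runs through spermine oxidase (Smox), which turns spermine straight back into spermidine and releases hydrogen peroxide and an aldehyde, or through acetylation by Sat1 followed by the peroxisomal oxidase Paox. Antizymes (Oaz1, Oaz2) bind ornithine decarboxylase and send it to the proteasome, and the antizyme inhibitor (Azin1) takes them off it.

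Gene counts ran from 33223878 to 49587839 per KO library and from 38171319 to 57300362 per Control library. The row for reads with more than 1 alignment held 69.2% to 81.9% of all counts without spike-ins in KO and 63.4% to 74.1% in Control. Rn45s took 5.52% to 10.1% of gene counts in KO and 8.46% to 11.5% in Control. Spike-in counts came to 0.0655%, 0.0569%, 0.395% and 0.0739% of gene counts in KO replicates 1 to 4 and 0.299%, 0.522%, 0.401% and 0.327% in Control. KO replicates 1, 2 and 4 thus lay below every Control library, and the cause was not tested. Cic itself measured 44.9, 34.5, 59.3 and 37.5 CPM (a gene's counts relative to the library total, scaled with TMM factors) in KO replicates 1 to 4 and 103, 72.4, 101 and 101 CPM in Control, so every KO library lay below every Control library and some Cic RNA remained. Otp, which defines the labelled cells, was present, with 2.69 to 8.55 CPM over the KO libraries and 2.28 to 5.01 CPM over the Control libraries, and all 8 listed genes of its lineage were detected. Markers of other cells were present too: none of the listed oligodendrocyte, precursor, astrocyte, microglia, endothelial, mural, ependymal or tanycyte markers was at 0 in all libraries. Over all 15438 genes tested, 40 passed edgeR adjusted p 0.05, and the median log2 fold change was 0.02.

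The count tables could not measure all members. Oaz1 had 0 counts in all 8 libraries, which allows up to 0.0513 to 0.0924 CPM per library, and Amd1 had 1 count in KO replicate 3, 1 in Control replicate 4 and 0 elsewhere. Both genes have near-identical copies. Of the 50-base words in the longest coding Oaz1 transcript, 52.2% also occur in Oaz1-ps, a processed pseudogene on chromosome 17, and of those in Amd1 86.05% occur in its copy Amd2, also on chromosome 10. Oaz1-ps and Amd2 were also counted at 0 in every library. The longest run shared without a difference is 480 bases for Oaz1 and Oaz1-ps, covering 477 of the 678 coding bases, and 930 bases for Amd1 and Amd2, covering 795 of 1002. The tables hold a separate row for reads with more than 1 alignment, and whether these 2 genes lost their reads to it was not tested. As the Oaz1 total was 0, its words that occur in no other gene gave no counts either. Oaz1 also shares 74 exon bases with Mir1982 on the same strand. A count of 0 here is therefore no measure of Oaz1 or Amd1 RNA. A stretch of sequence sets a member without counts beside its paralog that was counted. The Oaz1 bases below also stand letter for letter in Oaz1-ps, the Amd1 bases, from its start codon, also stand in Amd2, and the matching Oaz2 bases are printed with the 14 of 60 that differ from Oaz1 in capitals.
Oaz1: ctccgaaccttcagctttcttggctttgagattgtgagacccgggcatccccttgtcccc
Oaz2: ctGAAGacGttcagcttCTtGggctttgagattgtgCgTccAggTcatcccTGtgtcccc
Amd1: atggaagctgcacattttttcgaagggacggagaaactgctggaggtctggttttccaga
Among the other members, the share of such words found in another gene was 0% for Smox, 2.41% for Srm, 6.43% for Azin1, 7.28% for Sat1, 11.98% for Oaz2, 28.7% for Sms, 28.9% for Paox and 42.2% for Odc1. The Sms copy is the pseudogene Sms-ps. Levels of Sms, Paox and Odc1 are therefore uncertain, since reads with more than 1 alignment were held in the separate row and may be missing from these genes.

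Smox, the spermine oxidase, was the member that differed between the genotypes. It measured 15.1, 18.6, 18.8 and 17.9 CPM in KO replicates 1 to 4, and 22.3, 31.9, 30.6 and 30.6 CPM in Control replicates 1 to 4. No KO library reached the lowest Control library, replicate 1, which stood apart below the other 3. The means were 17.6 ± 1.74 CPM in KO and 28.9 ± 4.40 in Control (SD, n = 4 each), which puts KO at 61.0% of Control (edgeR adjusted p = 0.0489, log2 fold change -0.71, SE 0.14). Counts behind these values were 581 to 811 per KO library and 1156 to 1367 per Control library. Smox was the only one of the 8 tested members past the threshold and the only one without overlap. Of all 15438 genes tested 0.259% passed, 0.0648% lower and 0.194% higher in KO, and 5.93% had no overlap, 2.91% with KO lower. Nothing is read from the members' count because the set was chosen from this contrast. The adjusted p lies just under the threshold. It passed in 1 of 8 analyses that left out 1 library, the one without Control replicate 1 (log2 fold change -0.82, edgeR adjusted p = 0.0346), and reached 0.223 without Control replicate 4, while the fold change stayed between -0.82 and -0.65.

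**Figure D1:**
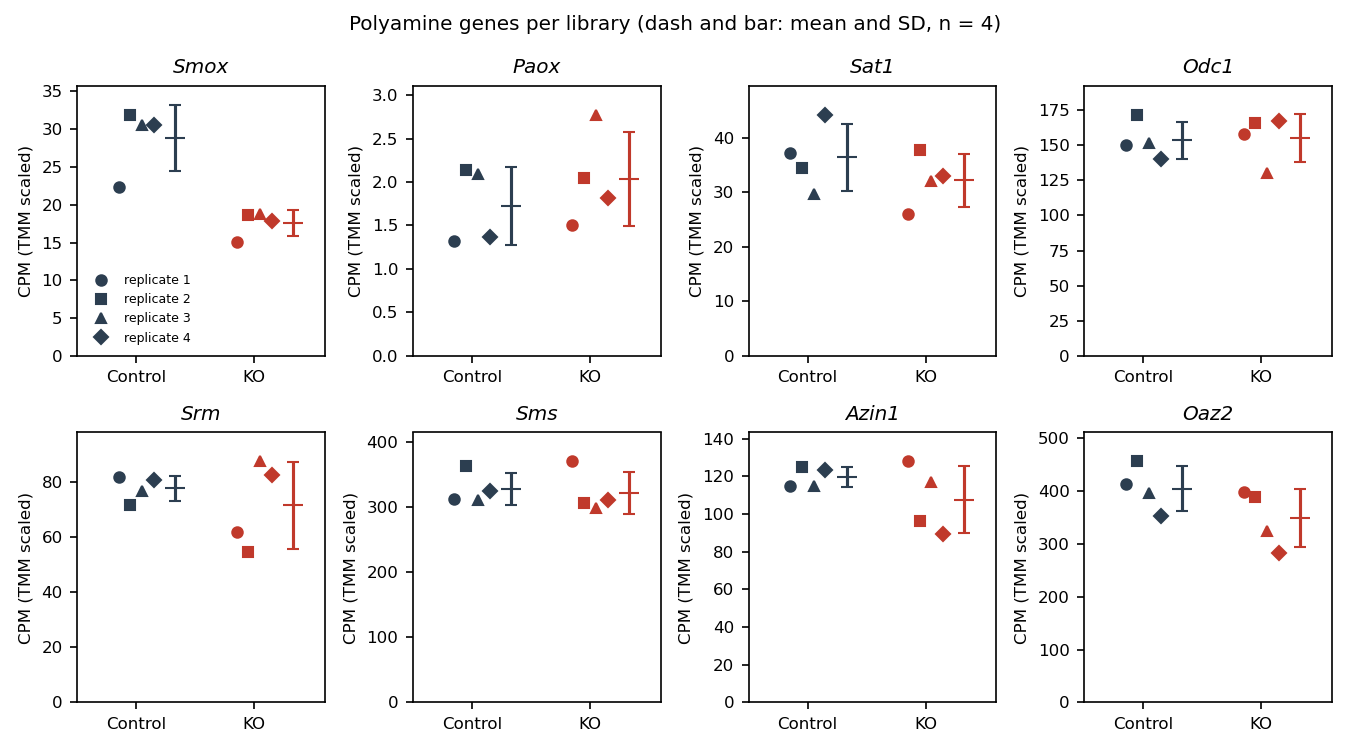
CPM of the 8 measurable members in each library (y axis, from 0), Control in dark blue and KO in red, marker shape by replicate number, with mean and SD to the right of each group (n = 4). Smox is the panel where the groups separate, with 15.1 to 18.8 CPM over the KO libraries and 22.3 to 31.9 CPM over the Control libraries.

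**Figure D2:**
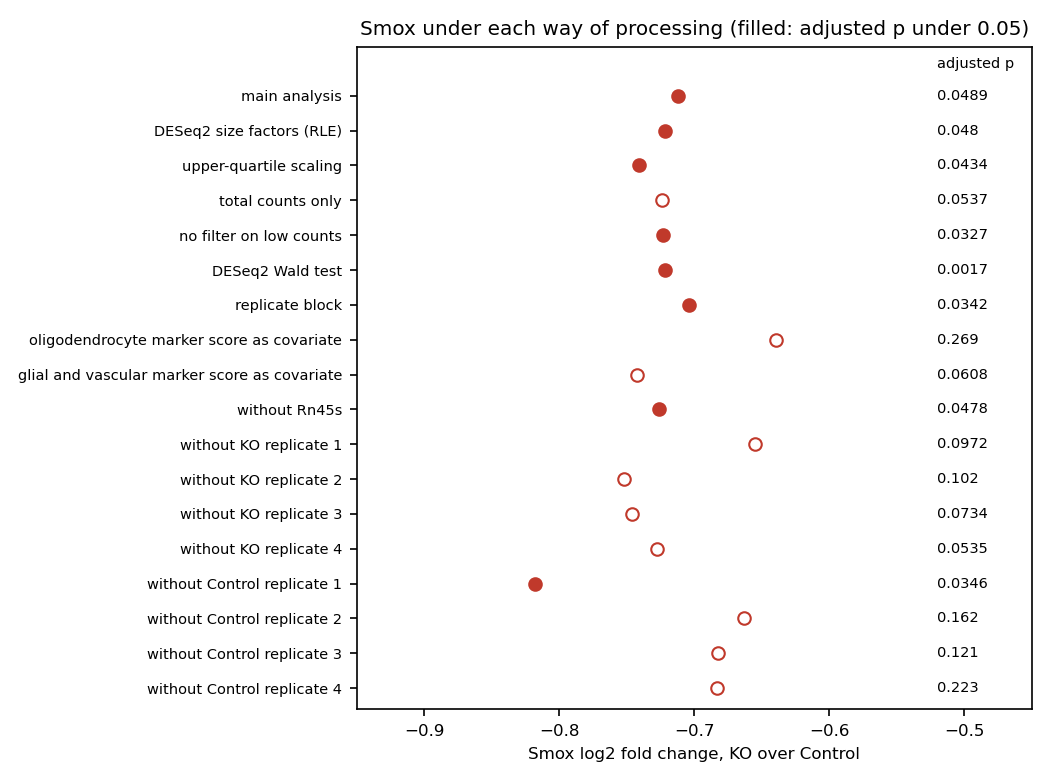
Log2 fold change of Smox, KO over Control (x axis), for each way of processing (y axis), filled where the adjusted p, printed at the right, is under 0.05. The fold change ran from -0.82 to -0.64 over the 17 alternatives and the adjusted p passed in 7 of them.

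The Smox gene (ENSMUSG00000027333.18) occupies chr2:131491496-131525922 of GRCm38, plus strand, and no other annotated gene overlaps it. Because Capicua binds DNA at a known octamer, the promoters of the members were searched for it in RefSeq sequences of GRCm38.p6, in windows of 300 bases around each start. Windows were held for 8 of the 10 genes; Azin1 and Srm had none. The 4 forms of the octamer searched on both strands were TGAATGAA, TGAATGGA, TCAATGAA and TCAATGGA. None of the 10 member windows held one, and 3.84% of all 32851 promoter windows did, so these letters are not in these windows and nothing follows about binding. The GC box GGGCGG, searched on both strands, was in 8 of the 10 member windows and in 35.7% of all. Smox had 6 in its window, and the part of it that no annotated exon covers, chr2:131491654-131491763 (plus strand), is printed with its 2 GC boxes in capitals to show the start region of the member that differed. It lies inside the gene, between an annotated exon that ends at 131491653 and another that starts at 131491764.
Smox: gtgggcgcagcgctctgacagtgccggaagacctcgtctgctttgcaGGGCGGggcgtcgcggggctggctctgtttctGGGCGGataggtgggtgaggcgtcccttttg

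Markers of oligodendrocytes also had lower means in KO, and 1 of 14 passed the test. An unadjusted p under 0.05 was found for 8 of 14 (57.1%), against 10.6% of all genes tested. No overlap between the groups was found for 4 of 14 (28.6%), against 5.93% of all. The fold change was negative for each of the 14 (median log2 fold change -0.34, against 0.02 over all genes tested), and the one that passed was Cldn11, the claudin of myelin, with 28.0 ± 7.56 CPM in KO and 49.2 ± 5.68 CPM in Control (edgeR adjusted p = 0.0375). Cldn11 passed in 1 of 8 analyses that left out 1 library, the one without KO replicate 4. It did not pass with either marker score as a covariate, but both scores include Cldn11 itself, so those fits cannot judge its difference. Summed over the list, the KO libraries had 1785 to 3271 CPM and the Control libraries 2796 to 3581 CPM, which overlap. KO replicate 1 was lowest both for this sum (1785 CPM) and for Smox (15.1 CPM). Control replicate 1, lowest of the Control libraries for Smox at 22.3 CPM, had the highest sum of all, 3581 CPM. These are single libraries, and whether Smox follows this sum was not tested. With the mean level of these markers as a covariate, Smox had a log2 fold change of -0.64 and an edgeR adjusted p of 0.269, and with a score of all glial and vascular markers -0.74 and 0.0608. Medians of the other non-neuronal lists were -0.27 for oligodendrocyte precursors, -0.07 for astrocytes, -0.50 for microglia, -0.12 for endothelial and mural cells and -0.31 for ependymal cells and tanycytes. The 12 neuron markers had a median of 0.12 and the 8 Otp-lineage genes 0.49, the latter summing to 1122 to 2032 CPM in the KO libraries and 982 to 1042 CPM in the Control libraries. These sums did not overlap, and all 8 fold changes were positive. An unadjusted p under 0.05 was found for 6 of the 8 (75.0%, against 10.6% of all genes tested), while 0 passed the adjusted threshold and 1 had no overlap by itself. In RNA of a mixed pulldown, fewer cells of a type, less RNA per cell and carry-over from untagged cells cannot be told apart. The cell type that carries the Smox difference was not tested.

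The second route of polyamine oxidation showed no such difference. Paox, which oxidises acetylated polyamines, was the lowest of the measurable members, at 1.505, 2.04, 2.77 and 1.82 CPM in KO and 1.32, 2.14, 2.09 and 1.37 CPM in Control. The groups overlapped throughout (0.24 ± 0.26 SE as a log2 fold change). It rests on 59 to 112 counts per library, and it shares 142 exon bases with the antisense gene Echs1, and reads of the pair cannot be separated there if counting ignored strand. Sat1, the acetyltransferase that feeds Paox, measured 26.0, 37.8, 32.04 and 33.0 CPM in KO and 37.3, 34.5, 29.7 and 44.2 CPM in Control. Its log2 fold change was -0.18 (SE 0.16) with an edgeR adjusted p of 0.740, the groups overlapped, and the fold change turned to 0.12 with the oligodendrocyte score as a covariate. Neither gene passed in any of 17 alternatives.

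Of the synthesis enzymes, Odc1 and Sms had group means that lay close together, Srm spread more widely in KO, and Amd1 had no usable counts. Odc1, the first step, measured 158, 166, 130 and 167 CPM in KO and 150, 171, 152 and 140 CPM in Control, and its means of 155 ± 17.03 and 153 ± 13.2 CPM differed by a log2 fold change of 0.02 (SE 0.10). Sms, spermine synthase, measured 370, 306, 300 and 312 CPM in KO and 312, 363, 311 and 326 CPM in Control (-0.03 ± 0.09 SE as a log2 fold change), with KO replicate 1 above the other KO libraries. These 2 fold changes are small against their standard errors, and both changed sign when single libraries were left out. With the oligodendrocyte score as a covariate, Sms moved to -0.20 (edgeR adjusted p = 0.679). Srm, spermidine synthase, had 62.1, 54.7, 87.7 and 82.6 CPM in KO, and 81.9, 71.8, 76.8 and 80.7 CPM in Control. KO replicates 1 and 2 lay below the Control range and KO replicates 3 and 4 above it, and the coefficient of variation was 22.1% in KO and 5.85% in Control (-0.12 ± 0.17 SE as a log2 fold change).

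The regulators of ornithine decarboxylase had somewhat lower means in KO and did not pass the test. Oaz2, the abundant measurable antizyme, had 397, 389, 324 and 282 CPM in KO and 414, 456, 396 and 352 CPM in Control (edgeR adjusted p = 0.597, log2 fold change -0.22, SE 0.14). Azin1 had 128, 96.2, 117 and 89.4 CPM in KO and 115, 125, 115 and 123 CPM in Control (edgeR adjusted p = 0.743, log2 fold change -0.15, SE 0.12), with a coefficient of variation of 16.7% in KO and 4.49% in Control. For both genes the groups overlapped, the fold change was negative in all 17 alternatives, and KO replicate 4 was the lowest library. With the oligodendrocyte score as a covariate, the log2 fold change was -0.40 for Azin1 (edgeR adjusted p = 0.379) and -0.37 for Oaz2 (0.445). Azin1 shares 358 exon bases with Gm49077 on the opposite strand. Across the 8 tested members 6 fold changes were negative and 2 positive, with a median of -0.13, against 46.2% negative and a median of 0.02 over all genes tested.

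Per kilobase of annotated exon, the order of the members in Control put antizyme first and oxidases last. Oaz2 stood at 135 ± 14.4 CPM per kilobase, followed by Sms at 54.6 ± 3.996, Srm at 48.7 ± 2.85 and Odc1 at 45.05 ± 3.86 (SD, n = 4). Srm and Odc1 overlapped between libraries, at 44.9 to 51.2 and 41.1 to 50.4 CPM per kilobase, and are not told apart. The Odc1 level is uncertain, with 42.2% of its 50-base words found in another gene. The lowest Sms library (51.8) lay narrowly above the highest Srm library, with the Sms level uncertain because of Sms-ps. Azin1 came next at 19.1 ± 0.858, then Sat1 at 13.1 ± 2.19, Smox at 7.41 ± 1.13 and Paox at 0.352 ± 0.0913, and none of these 4 overlapped with its neighbours. The length used joins all annotated exons, 6256 bases for Azin1 and 2774 for Sat1. Their longest coding transcripts have 4871 and 1162 bases, so the order of these genes depends on the length chosen. Joined exons of Sms, Odc1 and Srm have 6010, 3405 and 1599 bases, and their longest coding transcripts 3717, 2208 and 1338. Their spacing thus depends on the length as well. KO kept the Control order but for Odc1 (45.6 ± 5.0003) and Srm (44.9 ± 9.92), and Smox there was at 4.52 ± 0.446 CPM per kilobase. Smox was above Paox per kilobase in every library of both groups.

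Ratios of counts within a library do not depend on how libraries are scaled. For 8 ratios between members with opposed or successive roles, chosen after the members' values were seen, the counts of 1 gene were taken as a percent of those of the other. Smox counts were 4.07%, 6.09%, 6.28% and 5.74% of Sms counts in KO and 7.14%, 8.79%, 9.83% and 9.39% in Control. Every KO library thus had a lower ratio of Smox to Sms RNA than any Control library, with the Sms counts uncertain because of Sms-ps. Against Paox, Smox stood at 679% to 1001% in KO and 1463% to 2241% in Control, also without overlap. Against Sat1 the groups were separated narrowly, at 49.2% to 58.8% in KO and 59.8% to 103% in Control. Odc1 counts were 39.8%, 42.6%, 40.2% and 59.1% of Oaz2 counts in KO and 36.3%, 37.6%, 38.3% and 39.7% in Control, where the groups touch and KO replicate 4 stood far above the rest. Azin1 over Oaz2, Azin1 over Odc1, Sat1 over Sms and Srm over Sms overlapped between the groups. These ratios come from the contrast that chose the set and are given without a test.

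**Figure D3:**
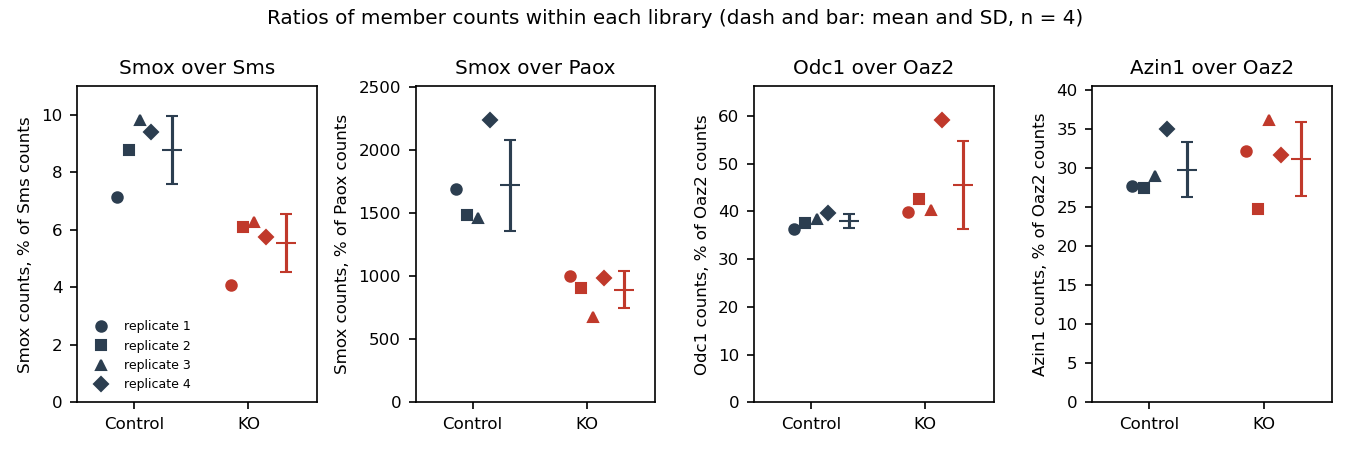
Counts of 1 member as a percent of those of another in the same library (y axis, from 0), Control in dark blue and KO in red, marker shape by replicate number, with mean and SD (n = 4). Smox over Sms and Smox over Paox separate the groups, Odc1 over Oaz2 leaves them touching at 39.7% and 39.8%, and Azin1 over Oaz2 overlaps.

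Around the members, 39 further genes of polyamine metabolism were taken from lists made by function. Of these 31 were tested and 0 passed edgeR adjusted p 0.05 in either direction, 19 with a positive and 12 with a negative fold change (median 0.04). At an unadjusted p of 0.05, 5 of the 31 passed (16.1%) where 10.6% of all genes tested did, and 6 (19.4%) had no overlap between the groups where 5.93% of all did. With the DESeq2 Wald test, Eif5a2 passed and the other 30 did not.

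Genes of hypusination, the modification that joins a part of spermidine to the translation factor eIF5A, had lower means in KO for 3 of 4 genes, and none passed with edgeR. Eif5a2, the second eIF5A gene, measured 97.8, 96.4, 103 and 92.3 CPM in KO and 121, 124, 125 and 144 CPM in Control. Its groups did not overlap (log2 fold change -0.40 with SE 0.06, adjusted p = 0.159 by edgeR and 0.0218 by DESeq2). Dhps, deoxyhypusine synthase, had 24.0, 15.5, 14.3 and 18.7 CPM in KO and 29.9, 24.2, 23.5 and 26.5 CPM in Control, where KO replicate 1 lay above the lowest Control library (edgeR adjusted p = 0.228, log2 fold change -0.52, SE 0.18). Dohh, the hydroxylase of the second step, ranged from 32.4 to 47.1 CPM over the KO libraries and from 49.3 to 62.3 CPM over the Control libraries (edgeR adjusted p = 0.295, log2 fold change -0.38, SE 0.14). Eif5a, the substrate itself, was at 342 ± 47.8 CPM in KO and 312 ± 30.4 CPM in Control (0.13 ± 0.12 SE as a log2 fold change). The list of 4 had a median of -0.39, with 3 negative and 1 positive.

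Of the paralogs of the members, Azin2, the second antizyme inhibitor, measured 15.3, 13.0, 9.67 and 13.0 CPM in KO and 18.4, 18.04, 18.1 and 15.6 CPM in Control. The groups were separated by the gap between KO replicate 1 and Control replicate 4 (edgeR adjusted p = 0.307, log2 fold change -0.46, SE 0.15). Oaz3, at 4.797 ± 1.27 CPM in KO and 4.12 ± 0.403 CPM in Control, and Sat2, at 10.4 ± 1.25 and 9.77 ± 1.86 CPM, overlapped between the groups. Amd2 and Satl1 had 0 counts throughout.

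In the supply of arginine and ornithine, the 8 tested genes had fold changes from -0.01 to 0.21, with a median of 0.06, 7 positive and none with separated groups. Oat, which interconverts ornithine and glutamate semialdehyde, had 40.9 ± 9.21 CPM in KO and 35.4 ± 3.93 in Control, and Asl, argininosuccinate lyase, 10.7 ± 1.85 and 10.00 ± 1.13 CPM. In the methionine cycle and methylthioadenosine salvage, 5 of 9 tested genes were positive and 4 negative (median 0.04). Methionine synthase, Mtr, had 2.04, 1.77, 1.91 and 1.63 CPM in KO and 0.839, 0.753, 1.01 and 1.57 CPM in Control (edgeR adjusted p = 0.512, log2 fold change 0.82, SE 0.23), and Mri1, an enzyme of the salvage route, 2.85 ± 0.689 and 4.18 CPM on average (log2 fold change -0.55). Both rest on low counts.

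Transport genes had 4 positive and 3 negative fold changes among 7 tested (median 0.03). Atp13a2, a lysosomal polyamine exporter, had 82.1, 81.2, 68.3 and 79.6 CPM in KO and 96.7, 89.4, 90.9 and 87.9 CPM in Control, separated but small (edgeR adjusted p = 0.480, log2 fold change -0.23, SE 0.07). Slc47a1, an organic cation exporter, was near the limit of counting, with 15, 0, 0 and 2 counts in KO replicates 1 to 4 and 59, 28, 26 and 20 in Control (edgeR adjusted p = 0.263).

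**Figure D4:**
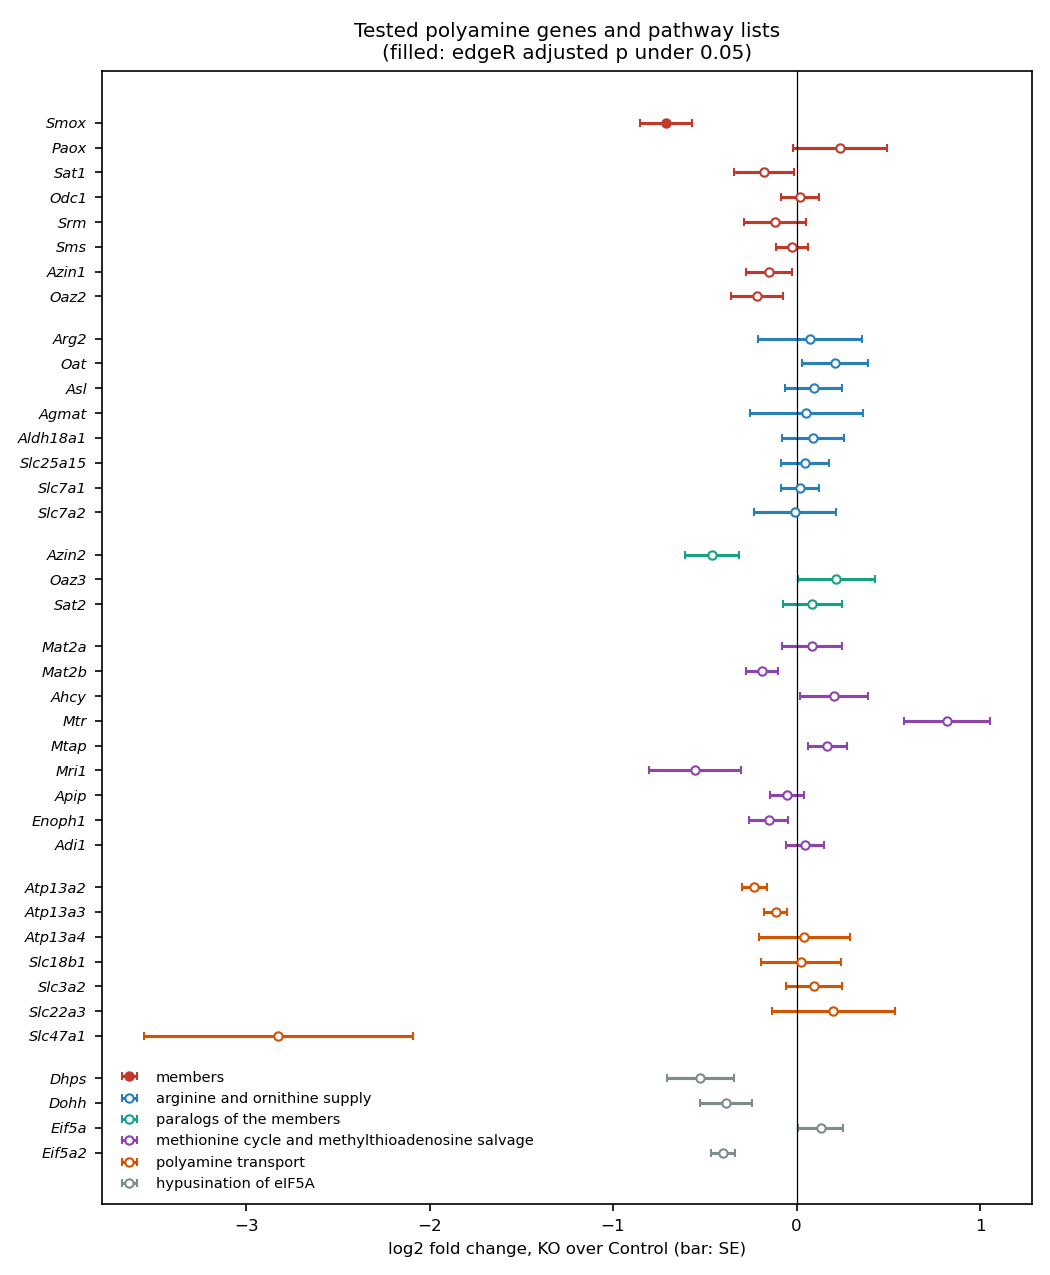
Log2 fold change, KO over Control, with SE (x axis) for the 8 tested members and the 31 tested genes of the pathway lists (y axis), coloured by list and filled where edgeR adjusted p was under 0.05. Smox at -0.71 is the filled point, and Slc47a1 at the far left rests on 0 to 15 counts per KO library.

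The 5 genes whose levels followed Smox most closely over the 8 libraries, of 13653 genes with a mean of at least 1 CPM, were Tmem44 (Pearson r of log2 CPM 0.95), the serotonin receptor gene Htr7 (0.95), the oxysterol hydroxylase gene Cyp39a1 (0.93), the cell cycle transcription factor gene E2f1 (0.92) and Desi1 (0.92). The difference between the groups is part of these values, and with each group's mean taken out r was 0.74, 0.73, 0.87, 0.49 and 0.44 in the same order. All 5 had negative fold changes, from -0.76 for Cyp39a1 to -0.28 for Htr7, and Desi1 alone passed the test (log2 fold change -0.58, edgeR adjusted p = 0.0233). The r values describe these libraries and carry no test.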

How the data were processed

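Per the labels' protocols, cDNA of ribosome-bound RNA was amplified from poly(A) and random primers before sequencing. The authors deposited whole-number counts for each gene symbol. The submitters' processing notes name TopHat2 2.0.9, HTSeq, DESeq2 and the build mm10. Which annotation and strand setting the counting used is not given here. The 92 spike-in rows and 5 counter rows were left out. Counts carry no molecular identifiers, so limits from counts cover counting error only.

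KO was tested against Control with edgeR 4.0.16 in R 4.3.3 (filterByExpr with minimum count 10 and total 15, TMM, robust quasi-likelihood fit over all 8 libraries, Benjamini-Hochberg over 15438 genes, threshold 0.05). SE is that of the difference in group means of log2 CPM. On simulated counts for this comparison and these 15438 genes, 50 genes were changed at each of several folds. Recovered were 20 of 50 at 1.5-fold, 36 of 50 at 2-fold, 36 of 50 at 3-fold and 48 of 50 at 4-fold. The 9 false calls are those of all these folds together and belong to no single fold. More genes were changed there than passed in the data, so recovery in the data may be lower. Alternatives were DESeq2 1.42.0, other scalings, no filter, marker covariates, a replicate block and leaving out each library.

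The members and lists were chosen with earlier results of these data known. Named besides the members and Cic are, of each pathway list, genes past the threshold or else the 2 of smallest p, oligodendrocyte markers past the threshold, and the 5 genes most like Smox; Dohh, Eif5a, Sat2, Oxt and Sst were named after their values were seen. Gene positions, exon lengths and transcripts come from GENCODE M21 on GRCm38, the assembly mm10 denotes. No 2 libraries were alike within sampling noise (chi-square per degree of freedom at least 27.2 over 28 pairs).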

Additional observations from a re-analysis of the deposited data

Results flagged for a closer look

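Among 38 groups of 4 libraries examined (members, named pathway genes and Cic), 5 held a library far from the other 3, where chance gives about 1 in 20. Smox was low in Control replicate 1, with 22.3 CPM where the others had 30.6 to 31.9. Sms was high in KO replicate 1, at 370 CPM against 300 to 312. Azin2 was low in Control replicate 4, at 15.6 CPM against 18.04 to 18.4, and Eif5a2 was high there, at 144 CPM against 121 to 125. Cic was low in Control replicate 2, at 72.4 CPM against 101 to 103.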

How the results depend on the processing

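Smox kept a negative fold change in all 17 alternatives and passed in 7. It missed the threshold with total counts only (log2 fold change -0.72, edgeR adjusted p = 0.0537), with the oligodendrocyte score (-0.64, 0.269) and with the glial and vascular score (-0.74, 0.0608) as covariates, and in 7 of 8 analyses without 1 library (-0.75 to -0.65, adjusted p 0.0535 to 0.223). It passed without Control replicate 1 (-0.82, 0.0346). The cause of these changes was not tested, and the analyses without 1 library also rest on fewer libraries. Of all genes tested 40 passed, 26 with total counts only, 180 with DESeq2, 20 with the oligodendrocyte score and 14 to 53 without 1 library, the fewest without Control replicate 4. Pathway genes past the threshold went from 0 to 1 with DESeq2, and marker genes from 1 (Cldn11) to 4 with DESeq2. Those 4 markers were all from the oligodendrocyte list. Without 1 library 0 to 1 marker passed, Cldn11 without KO replicate 4 and Oxt without KO replicate 3 (log2 fold change 0.97), and with the oligodendrocyte or the glial and vascular score it was Sst (1.05 and 0.71) in place of Cldn11. Both of these scores contain Cldn11, so its loss there says nothing about it. The labels do not say that replicate numbers pair samples, and deviations of same-numbered libraries correlated at -0.05 to 0.10. With the replicate block 65 genes passed, and 1 of the 4 pairs matched best with its own number. Precision is limited for Paox, Mtr and Slc47a1 by low counts and Oaz1 and Amd1 had no usable counts.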
